A study of Mus musculus with 12 samples.

Results

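Mex3a-low, Lgr5-high cells of the mouse small intestine were compared with Mex3a-negative, Lgr5-high cells. The members are the arrays whose population label reads Mex3a Low Lgr5 High (2 arrays) or Mex3a Neg Lgr5 High (2 arrays), 4 of the 12 Affymetrix expression arrays of the study. The study divided untreated primary intestinal cells into 6 populations, with Mex3a high, low or negative and Lgr5 high or low, and measured RNA of 2000 cells per sample after 22 cycles of amplification. Each population came from both biological replicates, MR793 and MR820, so n = 2 arrays per population, and this number limits the precision of every value. The strain, age and alleles of the mice, and what reported the Mex3a level during isolation, are not given in the labels. Values are the deposited RMA expression values on a log2 scale, and every difference is Mex3a-low minus Mex3a-negative.

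Lgr5 encodes a receptor for R-spondins that marks the cycling stem cells at the base of the intestinal crypt, and Mex3a encodes an RNA-binding protein. The offspring of these stem cells enter either the absorptive lineage, whose enterocytes carry brush border enzymes and transporters and export dietary lipid, or the secretory lineage. The secretory cells are goblet cells, which make mucus, enteroendocrine cells, which make hormones, tuft cells, which sense the lumen, and Paneth cells, which stay at the crypt base and make antimicrobial proteins.

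The 4 arrays were alike in most genes and in the stem cell genes. They correlated with each other at r = 0.992 to 0.995 across 17097 genes. Lgr5 stood at 10.21 in MR793 and 10.04 in MR820 for Mex3a-low cells, against 10.07 and 9.96 for Mex3a-negative cells, and at 6.37 to 7.39 on the arrays of the same Mex3a levels isolated as Lgr5-low. Mex3a stood at 5.79 and 5.63 in Mex3a-low cells, against 5.71 and 5.91 in Mex3a-negative cells. The Mex3a groups overlapped, so its probe set did not follow the population label. A dimmer Mex3a probe set differed by 0.085 (-0.16 in MR793, 0.33 in MR820). Both were dim, with mean levels of 5.67 and 5.26, below the array medians of 5.83 to 6.04. Whether Mex3a RNA differed between the groups could not be resolved from them. Of 27 measured stem cell genes 17 lay above 0 and 10 below, with a median difference of 0.03, and the median of all 17097 genes was 0.01. The stem cell markers Olfm4 (-0.10), Ascl2 (-0.03) and Smoc2 (0.09) differed little, and Igfbp4, which encodes a binding protein of insulin-like growth factors, had -0.45 (11.07 and 11.35 in Mex3a-low cells, against 11.52 and 11.78). The other Igfbp4 probe sets ranged from -0.32 to 0.18. The MR793 array of the Mex3a High Lgr5 High population, which is in neither group, correlated with the others at only 0.896 to 0.916 (0.971 to 0.996 among the other 11) and was left out of the fit. Both Mex3a-low arrays and the MR793 Mex3a-negative array lay on strip 1 and the MR820 Mex3a-negative array on strip 2, so that the MR793 difference is one within a strip.

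Genes of the absorptive lineage led the differences and lay lower in Mex3a-low cells. They made up most of the 15 lower genes named by rule, which took, in each direction, the smallest p among genes with a difference of at least 1 and the same sign in both replicates. Apoa4, which encodes an apolipoprotein of the chylomicron, read 7.22 in MR793 and 6.70 in MR820 for Mex3a-low cells, against 10.74 and 9.78 for Mex3a-negative cells. Krt20, a keratin of the differentiated epithelium, read 7.03 and 7.56, against 9.76 and 10.14. Both genes were low on both Mex3a-low arrays, and the groups did not overlap. The mean difference was -3.30 ± 0.77 (limma SE) for Apoa4 and -2.65 ± 0.47 for Krt20, that is, their signal in Mex3a-low cells was 0.102 and 0.159 of that in Mex3a-negative cells. Apoa1, the main apolipoprotein of high-density lipoprotein, read 8.59 and 9.79, against 11.82 and 11.95 (-2.69 ± 0.53). The neighbouring apolipoprotein gene Apoc3 read 7.94 and 7.96, against 10.53 and 10.12 (-2.37 ± 0.67), and Apoc2, the cofactor of lipoprotein lipase, 7.77 and 8.19, against 10.17 and 9.80 (-2.01 ± 0.62). Apoa1, Apoc3 and Apoa4 follow each other on chromosome 9 among the genes tested. The widest spread among these was that of Apoa1 in Mex3a-low cells, which averaged 9.19 ± 0.85, against 11.88 ± 0.09 in Mex3a-negative cells (SD, n = 2 each).

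**Figure D1:**
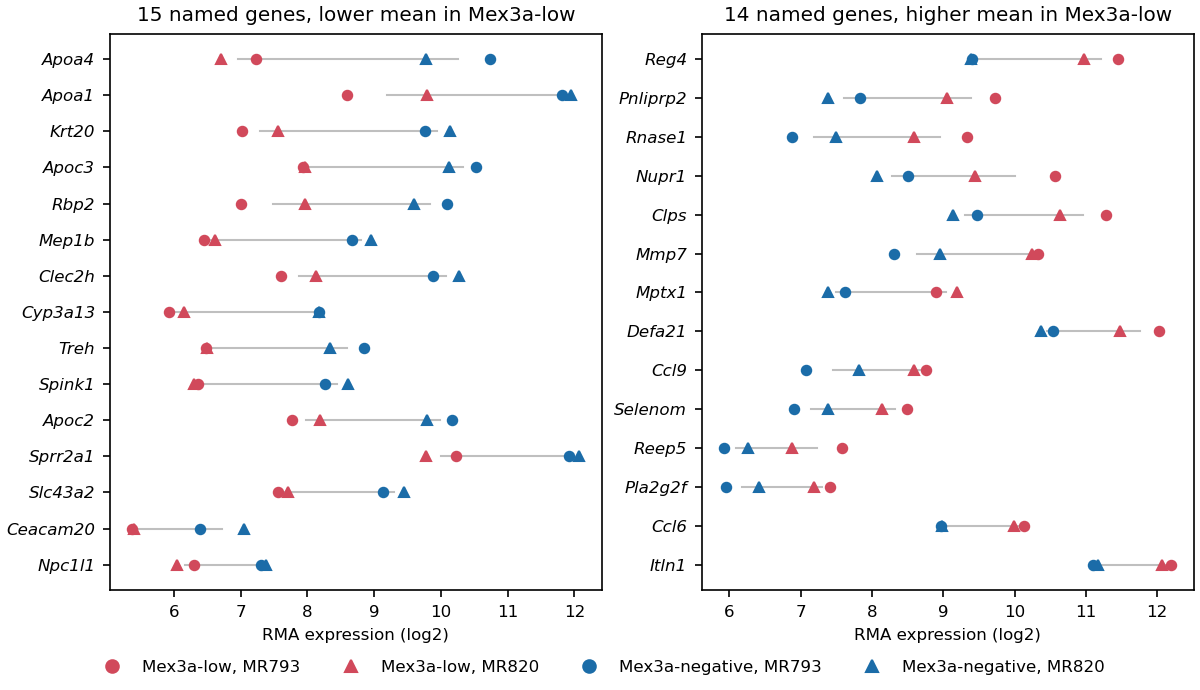
RMA expression (log2, x axis) of the 15 lower genes (left) and 14 higher genes (right) chosen by the naming rule, on each of the 4 Lgr5-high arrays. Red marks Mex3a-low and blue Mex3a-negative cells, circles MR793 and triangles MR820, and grey lines join the group means. No gene shown has overlapping groups, and the widest gap is that of Apoa4 (-3.30).

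Of the other lower genes named by the rule, 5 were in the absorptive or xenobiotic lists. Mep1b, a metalloprotease of the brush border, read 6.45 and 6.61 in Mex3a-low cells, against 8.66 and 8.95 in Mex3a-negative cells (-2.27 ± 0.57). Treh, the brush border enzyme that splits trehalose, read 6.47 and 6.49, against 8.85 and 8.34 (-2.12 ± 0.65). For the retinol-binding protein gene Rbp2 the values were 7.01 and 7.97, against 10.09 and 9.59 (-2.35 ± 0.59). Cyp3a13, a cytochrome P450 of drug metabolism, differed by -2.14 ± 0.58, and the intestinal cholesterol importer gene Npc1l1 by -1.17 ± 0.34. The remaining 5 were in no list. Slc43a2, an amino acid transporter, had -1.66 ± 0.34, and its 2 other probe sets had -0.98 and -0.82. The others were Clec2h (-2.20 ± 0.48), a lectin-like membrane protein, Spink1 (-2.11 ± 0.39), a trypsin inhibitor, and Ceacam20 (-1.32 ± 0.33), a membrane protein of the microvillus. Sprr2a1, a small proline-rich protein gene, had -1.998 ± 0.49, with near-identical paralogs that may share its probes. Each of these 15 genes was lower in both replicates, as the naming rule required.

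By function, the lists of absorptive cell genes shifted to lower values in Mex3a-low cells, each to a different degree. Of 17097 genes tested, 2585 (15.1%) had both Mex3a-low arrays below both Mex3a-negative arrays. Among 79 measured genes of 4 absorptive cell lists, 70 lay below 0 and 51 had groups that did not overlap and were lower, with a median of -0.39 (-0.38 in MR793 and in MR820). The 16 brush border hydrolases had a median of -0.70, with 15 below 0 and 11 not overlapping. Their mean level was 7.39 and 7.40 on the Mex3a-low arrays, against 8.32 and 8.11 on the Mex3a-negative arrays. The 21 genes of lipid absorption and export had a median of -0.60, with 20 below 0 and 17 not overlapping. In this list Fabp1, the liver-type fatty acid-binding protein, had -1.88, its intestinal relative Fabp2 -0.77, Mttp, which loads lipid onto nascent lipoproteins, -0.87, and Apob, their structural protein, -0.50. The 23 genes of xenobiotic and retinoid metabolism had -0.53 (13 not overlapping and lower), the 26 solute transporters -0.33 (15) and the 16 brush border cytoskeleton genes -0.20 (8). With blocks for replicate and strip together these medians came nearer to 0, at -0.45 for the hydrolases, -0.36 for lipid absorption and export, -0.29 for xenobiotic and retinoid metabolism, -0.11 for the transporters and -0.081 for the cytoskeleton. Slc5a1, the sodium-glucose cotransporter, differed by -0.65, Slc7a9, a cystine transporter subunit, by -0.97, and Pls1, which bundles actin in microvilli, by -0.77. The villus-top list had a median of -0.16 (4 of 17 not overlapping and lower) and the antimicrobial genes of the lower villus -0.29 (4 of 10), and both medians moved with single arrays. The villus-top median was 0.021 without the MR793 Mex3a-negative and -0.38 without the MR820 Mex3a-negative array, and -0.27 and -0.10 without the Mex3a-low arrays of MR793 and MR820. The antimicrobial median was -0.057 without the MR793 Mex3a-low, -0.70 without the MR820 Mex3a-low, -0.43 without the MR793 Mex3a-negative and -0.065 without the MR820 Mex3a-negative array. The 20 transcription factors of intestinal identity had a median of -0.05, with 13 below 0 and 7 above. Hnf4a differed by -0.01, Cdx2 by -0.08 and Gata4 by 0.02, while Creb3l3, a factor of lipid metabolism, had -0.99. Cdx1 was higher (10.80 and 11.02 in Mex3a-low cells, against 10.57 and 10.65, a difference of 0.30). Nr1i2 had 0.17 and Gata6 0.11, with -0.30 and -0.10 on their other probe sets. In bulk RNA, fewer cells of a type and less RNA per cell cannot be told apart.

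**Figure D2:**
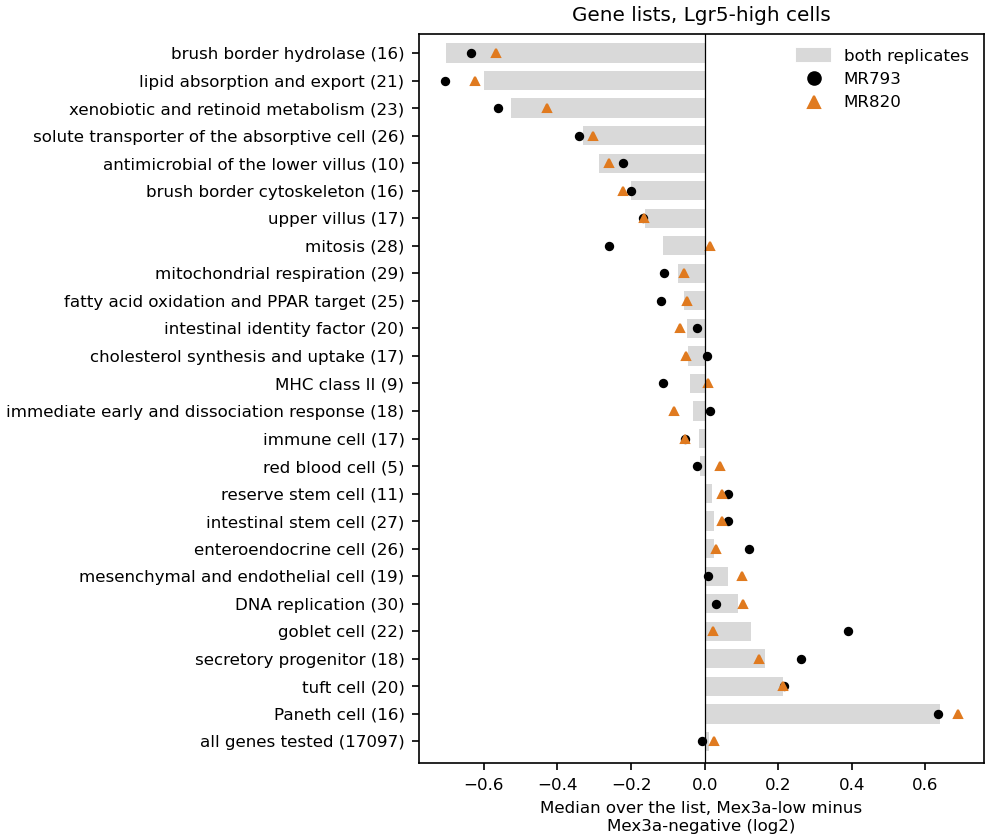
Median difference of each gene list (Mex3a-low minus Mex3a-negative, log2, x axis), with the number of genes measured in brackets. Bars give the value over both replicates, circles MR793 and triangles MR820. Brush border hydrolases (-0.70) and Paneth cell genes (0.64) lie at the ends, and all genes tested at 0.01.

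Genes were also set apart by size: groups that did not overlap and a difference of at least 1. This held for 44 lower genes (0.257% of all tested) and 14 higher genes (0.0819%). Of the 44 lower genes, 21 belonged to the absorptive or xenobiotic lists, which hold 102 of the 17097 genes. Just inside the limit lay Cyp3a11 (-1.002), Adh6a (-1.002) and Arg2 (-1.01), and just outside it Anpep, Nat8 and Mall (each -0.99). Alpi and Akp3, adjacent alkaline phosphatase genes on chromosome 1, were at 6.51 and 6.41 on the MR793 and at 8.31 and 8.31 on the MR820 Mex3a-low array, against 9.25 to 9.54 in Mex3a-negative cells, so these enzymes differed by -3.002 and -2.87 in MR793 and by -1.22 and -0.93 in MR820. Among those outside the lists, Gda, guanine deaminase, had -1.73, Selenop, which carries selenium, -1.97, Car4, a membrane-bound carbonic anhydrase, -1.39, and Lgals3, galectin-3, -1.03.

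Promoter letters of the genes set apart were read from RefSeq (GRCm38.p6), which gave a window of 250 bases before to 50 after the start for 38 of the 44 lower and 12 of the 14 higher genes. Motifs were searched on both strands of the 250 bases before the start only, not in the 50 after it. They were CAAAGTCCA for HNF4, a nuclear receptor of the absorptive lineage, TTTATG for CDX factors, AGATAA for GATA factors and TATAAA for the TATA box. The HNF4 letters stood in the promoters of 3 of the 38 lower genes (7.89%), namely Treh, Alpi and Cyp3a11, in 0 of the 12 higher genes and in 71 of 13605 tested genes (0.522%). The TATA box was in 28.9% of the lower, 41.7% of the higher and 10.7% of all tested genes, GATA in 15.8%, 41.7% and 8.7%, and CDX in 10.5%, 8.33% and 8.95%. The upstream 250 bases are shown for the 3 genes with the HNF4 letters, for Krt20 as a lower gene without them and for Itln1 as a higher gene, with all matches in capitals. They lie at chr9:44672983-44673232 (plus strand), chr1:87101607-87101856 (minus), chr5:145879855-145880104 (minus), chr11:99438154-99438403 (minus) and chr1:171535295-171535544 (minus).
Treh: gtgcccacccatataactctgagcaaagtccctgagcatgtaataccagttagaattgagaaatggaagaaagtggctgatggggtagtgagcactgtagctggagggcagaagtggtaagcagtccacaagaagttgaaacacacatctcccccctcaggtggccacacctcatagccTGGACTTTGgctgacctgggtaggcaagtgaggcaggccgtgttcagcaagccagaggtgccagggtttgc
Alpi: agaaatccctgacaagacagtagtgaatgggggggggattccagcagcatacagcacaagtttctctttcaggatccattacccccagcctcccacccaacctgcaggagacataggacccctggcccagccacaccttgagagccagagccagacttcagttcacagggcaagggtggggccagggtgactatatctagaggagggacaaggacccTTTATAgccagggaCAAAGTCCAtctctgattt
Cyp3a11: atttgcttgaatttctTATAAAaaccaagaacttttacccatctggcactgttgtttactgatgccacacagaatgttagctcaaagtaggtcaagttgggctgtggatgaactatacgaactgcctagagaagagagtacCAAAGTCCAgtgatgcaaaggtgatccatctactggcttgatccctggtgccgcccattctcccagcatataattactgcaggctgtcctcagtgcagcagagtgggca
Krt20: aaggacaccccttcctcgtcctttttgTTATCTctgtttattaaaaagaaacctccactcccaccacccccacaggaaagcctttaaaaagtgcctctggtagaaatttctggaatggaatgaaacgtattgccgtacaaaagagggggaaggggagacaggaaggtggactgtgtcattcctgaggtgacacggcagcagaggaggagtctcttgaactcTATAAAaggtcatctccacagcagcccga
Itln1: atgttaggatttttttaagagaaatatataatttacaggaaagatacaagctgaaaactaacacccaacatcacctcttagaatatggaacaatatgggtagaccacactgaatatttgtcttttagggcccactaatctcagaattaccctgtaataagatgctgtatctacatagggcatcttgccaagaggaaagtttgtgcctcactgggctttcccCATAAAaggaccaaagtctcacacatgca
The HNF4 letters begin 71 bases before the start in Treh, on the opposite strand, 19 bases before it in Alpi and 109 in Cyp3a11. Krt20 has a TATA box 29 bases before its start and Itln1 a CDX match, on the opposite strand, at the same distance. A match is a run of letters and was not tested as a site. Cyp3a11 read 4.68 and 4.75 in Mex3a-low cells, against 5.71 and 5.72 in Mex3a-negative cells.

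Paneth cell genes lay higher in Mex3a-low cells. Both Mex3a-low arrays were above both Mex3a-negative arrays for 3175 genes (18.6% of all tested) and for 12 of 16 measured Paneth cell genes, of which 14 lay above 0. Their median was 0.64 (0.64 in MR793, 0.69 in MR820), and their mean level was 9.71 and 9.48, against 8.84 and 8.73. Itln1, a lectin that binds microbial sugars, read 12.20 in MR793 and 12.07 in MR820 for Mex3a-low cells, against 11.10 and 11.17 for Mex3a-negative cells, a difference of 1.00 ± 0.14, or 2.00-fold. The groups did not overlap. Mmp7, the protease that activates defensins in mice, read 10.32 and 10.24, against 8.31 and 8.95 (1.65 ± 0.37). Clps, the colipase gene, read 11.29 and 10.64, against 9.47 and 9.14 (1.66 ± 0.43). Pnliprp2, a lipase-related gene, read 9.73 and 9.06, against 7.83 and 7.39 (1.78 ± 0.41), and its other probe set had 1.49. Nupr1, a stress-induced nuclear protein, had 1.72 ± 0.65 and Mptx1, a pentraxin, 1.54 ± 0.80. Defa21, an alpha-defensin with near-identical paralogs that may share its probes, had 1.30 ± 0.61. Members with smaller differences were Copz2 (0.78 ± 0.15), a coatomer subunit, and Lyz1 (0.50 ± 0.13), the Paneth cell lysozyme. Sox9, a transcription factor that Paneth and stem cells share, had 0.01 and Defa3, another defensin, 0.04.

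The higher genes set apart included secretory genes beyond the Paneth cell list. Reg4, a secreted lectin that is in the enteroendocrine list, read 11.45 and 10.97 in Mex3a-low cells, against 9.41 and 9.38 in Mex3a-negative cells (1.82 ± 0.54). The adjacent chemokine genes Ccl6 and Ccl9 had 1.09 ± 0.28 and 1.22 ± 0.23, with 0.20 on a dimmer probe set of Ccl9. Rnase1, a secreted ribonuclease, had 1.78 ± 0.40, the phospholipase gene Pla2g2f 1.12 ± 0.18 and Selenom, a selenoprotein of the endoplasmic reticulum, 1.17 ± 0.25. Reep5, which shapes endoplasmic reticulum membranes, had 1.14 ± 0.38 on the probe set used, with 0.78 and -0.03 on its other probe sets. Of the 14 higher genes 10 belonged to the 5 secretory lists, which hold 96 of the 17097 genes, and the nearest below the limit of 1 were Spink4 (0.95), Atp2a3 (0.90) and Sh2d6 (0.83). Clps, Pnliprp2 and Rnase1 are also known from the acinar cells of the pancreas. The acinar enzyme genes Cpa1, Cpb1, Prss2 and Amy2a5 differed by 0.01, -0.11, -0.09 and -0.04. These enzyme genes were picked with their values in view, and RMA compresses differences of dim probe sets. A part of pancreatic RNA in the higher genes was not tested.

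The test across all genes called none of these differences singly. Limma with 6 population means on 11 arrays called 0 of 17097 genes at an adjusted p under 0.05 (0%), with 554 at an unadjusted p under 0.05 (3.24%), 295 higher (1.73%) and 259 lower (1.51%). The adjusted p was 0.974 for Itln1 and 1.00 for the other 28 genes named by the rule. With the biological replicate as a block 4 genes rose (0.0234%) and 0 fell in Mex3a-low cells: Spink4, a goblet cell protease inhibitor (0.95), and Clps (1.66), both with limma adjusted p = 0.0194, Pnliprp2 (1.78, adjusted p = 0.0334) and Itln1 (1.00, adjusted p = 0.0494). Fitted on the 4 arrays alone, 5 genes rose (0.0292%) and 18 fell (0.105%). The 5 that rose were Ccl6, Itln1, Mptx1, Reg4 and Spink4. Of the 18 that fell 11 belonged to the absorptive or xenobiotic lists, among them Apoa4 (limma adjusted p = 0.0168), Krt20 (0.0113), Apoc3 (0.00691), Mep1b (0.00691), Cyp3a13 (0.00691) and Treh (0.0139). Spink1 (0.00932) and Sprr2a1 (0.00932) also fell.

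The spread between replicates differed among the populations that entered these fits. For the 44 lower genes the median SD between replicates was 0.28 in Mex3a-low and 0.24 in Mex3a-negative Lgr5-high cells, and 1.46 in Mex3a-negative Lgr5-low cells, where MR793 exceeded MR820 by a median of 2.07. The SE of Krt20 was 0.47 on 11 arrays and 0.21 on the 4 arrays, and that of Treh was 0.65 and 0.18. Leaving out either array of that Lgr5-low population gave 20 calls, 19 lower and 1 higher. The part of this spread in the number of calls was not tested.

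The lowest genes recurred between the biological replicates, and the highest genes less so beyond the first 20. The 20 genes lowest in MR793 were all lower in MR820 too, with a median there of -1.93, and 17 of them passed -1, as did 0.298% of all genes. The 20 genes highest in MR793 had the same sign in MR820 for 18, against 56.2% of all genes, with a median of 0.87, and 9 passed 1. For the 100 highest in MR793 the median in MR820 was 0.17 (67 of 100 higher), and for the 100 lowest it was -0.87 (96 of 100 lower). Picked in MR820 and read in MR793, the 20 lowest had a median of -1.92 (18 of 20 lower) and the 20 highest one of 1.22 (18 of 20 higher). Over all 17097 genes, which are not independent and share 4 arrays, the differences of the replicates correlated at r = 0.318 (Spearman's rho = 0.0988).

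**Figure D3:**
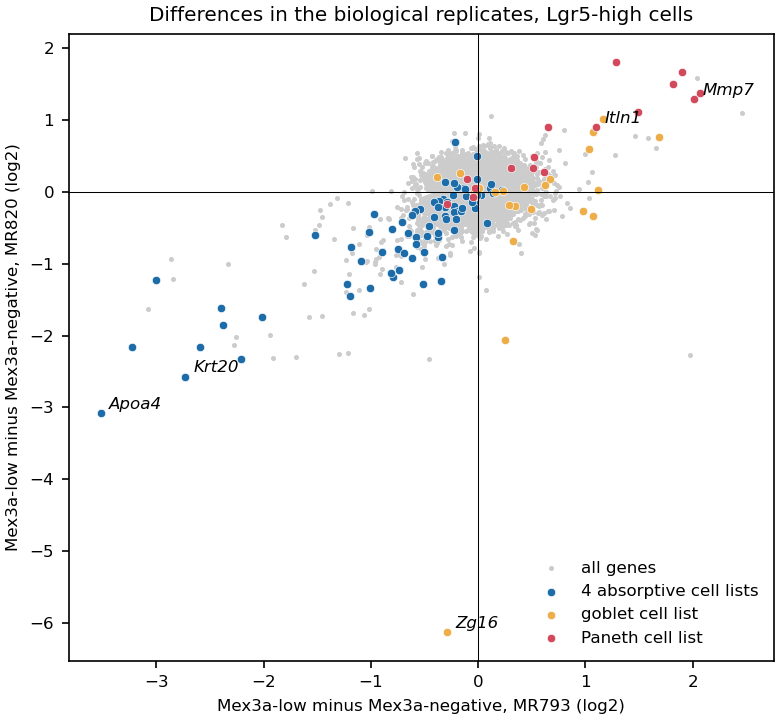
Difference of each gene (Mex3a-low minus Mex3a-negative, log2) in MR793 (x axis) and MR820 (y axis), all 17097 genes in grey. Absorptive cell genes (blue) run to the lower left and Paneth cell genes (red) to the upper right. The goblet cell gene Zg16 lies at -0.29 in MR793 and -6.13 in MR820.

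Goblet cell genes split between the replicates. The 22 genes measured had a median of 0.13, at 0.39 in MR793 and 0.02 in MR820. Of these 7 did not overlap and were higher, against 18.6% of all genes tested. Zg16, a lectin of the mucus, read 11.18 in MR793 and 5.16 in MR820 for Mex3a-low cells, against 11.46 and 11.29 for Mex3a-negative cells. Clca1, a secreted mucus protease, read 9.85 and 7.64, against 9.60 and 9.70. On the MR820 array of Mex3a-high Lgr5-high cells Zg16 stood at 5.86 and Clca1 at 6.61. Both genes were thus low on 1 of the 2 Mex3a-low arrays only, and the Zg16 mean difference of -3.21 ± 1.46, which puts it among the 44 lower genes, rests on that array. A defect of the array and a difference of the sample cannot be told apart from these values. Fcgbp, the mucus Fc-binding protein, also read lower on that array (10.65, with 11.61 in MR793, against 11.29 and 11.33), Tff3, the trefoil peptide, read 12.43 and 11.98, against 12.08 and 12.17, and Spink4 12.05 and 11.78, against 10.98 and 10.94.

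Other secretory genes differed less than the Paneth cell genes. Of 18 secretory progenitor genes 15 lay above 0 and 9 did not overlap and were higher, with a median of 0.16. Of all 17097 genes 9240 lay above 0, and 18.6% did not overlap and were higher. Atoh1, the factor that commits cells to the secretory lineage, read 7.71 and 7.14 in Mex3a-low cells, against 6.67 and 6.53 (0.82 ± 0.30). Bhlha15, a factor of secretory cell maturation, had 0.77 ± 0.26, Dll4, a Notch ligand, 0.67 ± 0.22, and Insm1, an enteroendocrine factor, 0.67 ± 0.20. The other probe sets of Bhlha15 and Dll4 had 0.48 and 0.18. The 20 tuft cell genes had a median of 0.21 with 17 above 0, with Sh2d6 at 0.83 and the actin-binding Avil at 0.50. The channel gene Trpm5 had 0.63 on the probe set used, with 0.24 and -0.08 on its other probe sets. The 26 enteroendocrine genes had a median of 0.03. No gene of these lists was called by limma in either the fit without or the fit with the replicate block, apart from Spink4 of the goblet cell list and Itln1, Clps and Pnliprp2 of the Paneth cell list in the fit with it.

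Proliferation and metabolism lists had small median differences, though many respiration genes were lower by a small amount on both Mex3a-low arrays. The 28 mitosis genes had a median of -0.11 (-0.26 in MR793, 0.01 in MR820), with Mki67, the proliferation antigen, at -0.23, and the 30 DNA replication genes had 0.09. The 29 genes of mitochondrial respiration had a median of -0.07, and 17 of them did not overlap and were lower, against 15.1% of all genes. At an unadjusted limma p under 0.05, 5 of the 29 were lower, against 1.51% of all genes. Uqcrb, a subunit of complex III, read 9.70 and 9.85, against 10.25 and 10.20 (-0.45 ± 0.10), and Cox6c, of complex IV, 11.75 and 11.78, against 12.03 and 12.01 (-0.25 ± 0.06). Reserve stem cell genes (0.02, 11 genes), fatty acid oxidation genes (-0.06, 25) and cholesterol synthesis genes (-0.05, 17) lay near the median of all genes. Of these small medians, those of DNA replication, reserve stem cell and cholesterol synthesis genes changed sign under at least 1 alternative processing. Those of mitosis and fatty acid oxidation genes did so only with an array left out. That of mitochondrial respiration kept its sign throughout. Markers of other cells moved little with the groups: medians were -0.02 for 17 immune cell genes, 0.06 for 19 mesenchymal and endothelial genes, -0.01 for 5 red blood cell genes, -0.04 for 9 MHC class II genes and -0.03 for 18 immediate early genes. The mean level of the immune list was 6.09 and 6.19 on the Mex3a-low arrays, against 6.29 and 6.23. Within it Gzma, the cytotoxic granzyme, read 5.38 and 6.43, against 7.21 and 6.89, and the T cell receptor subunit Cd3e 4.74 and 4.88, against 5.24 and 5.32. Their part in the other differences was not tested.

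The same contrast in Lgr5-low cells, which shares no array with it, separated the higher from the lower genes. In both replicates all 14 higher genes lay above the Mex3a-negative level in Mex3a-low Lgr5-low cells too, by 0.50 to 4.35 (median 1.77). Limma called 16 genes higher (0.0936%) and 0 lower in that gate, with 822 at an unadjusted p under 0.05 in either direction (4.81%), and 78 genes (0.456%) were set apart there as higher and 0 as lower by the same limits. With the replicate block the counts were 56 higher (0.328%) and 1 lower (0.00585%). Of the 14 genes Itln1 (2.16 ± 0.14) and Pla2g2f (1.74 ± 0.18) were among the 16 that rose. With the replicate block 8 of the 14 rose: Clps, Defa21, Itln1, Mmp7, Pla2g2f, Pnliprp2, Reep5 and Reg4. Of the 44 lower genes 32 were below 0 in Lgr5-low cells, with a median of -0.36, but only 7 in both replicates, since their median was -1.18 in MR793 and 0.51 in MR820. Krt20 read 10.22 and 9.78 in Mex3a-low Lgr5-low cells, against 10.91 and 9.11 in Mex3a-negative Lgr5-low cells, and Apoa4 10.35 and 9.30, against 11.08 and 8.23. Both genes overlapped there. The difference between the gates was tested in the same fit, which called 2 genes (0.0117%), Gip, one of the 44, and Nkx2-2, with 573 at an unadjusted p under 0.05 (3.35%). With the replicate block it called 7 (0.0409%), and of the genes set apart Gip alone in both fits. Nkx2-2 was not called with the strip block or with both blocks, and neither gene was called on all 12 arrays, without either Mex3a-low Lgr5-high array or without the MR793 Mex3a-negative one. The change of Krt20 differed between the gates by -2.64 ± 0.66 and that of Apoa4 by -3.47 ± 1.09 (limma adjusted p = 0.999 for both). Without the MR793 Mex3a-negative Lgr5-low array these differences were -3.54 for Krt20 and -4.90 for Apoa4. Leaving out the MR820 array of that population instead makes both smaller in size. In Lgr5-low cells the change of Krt20 was -0.69 in MR793 and 0.67 in MR820, and that of Apoa4 -0.74 and 1.07. The size of the difference between the gates therefore depends on which of these discordant arrays is kept.

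**Figure D4:**
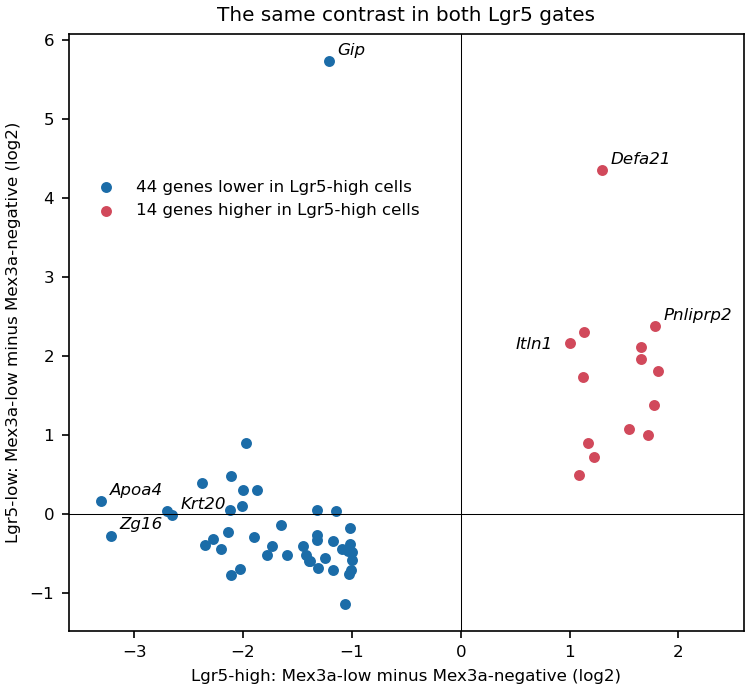
Difference of the genes set apart in Lgr5-high cells (x axis) and the same contrast in Lgr5-low cells (y axis), both Mex3a-low minus Mex3a-negative in log2. The 14 higher genes (red) are above 0 in both gates, and the 44 lower genes (blue) have a median of -0.36 in Lgr5-low cells, 32 of them below 0, with Gip at 5.73.

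The remaining Mex3a-high Lgr5-high array, from MR820, took a different place for each set of genes. For all 15 named lower genes its level lay between the Mex3a-low and the Mex3a-negative arrays, and for 33 of the 44 lower genes (75.0%), against 23.6% of all 2585 genes with groups that did not overlap in that direction. Krt20 read 8.90 there, Apoa4 8.74 and Treh 7.20. For 13 of the 14 higher genes it stood at or beyond the Mex3a-low level, against 33.2% of all 3175 genes with groups that did not overlap in that direction, with Itln1 at 12.16, Mmp7 at 10.76 and Reg4 at 11.33. The named genes and the genes set apart were chosen for a difference of at least 1, and another array falls inside a wider gap more often. Their share between the groups is therefore not comparable with that of all 2585 genes. Nor is their share at or beyond the Mex3a-low level comparable with that of all 3175 genes. The Mex3a-high values come from 1 array, and its position was not tested.

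**Figure D5:**
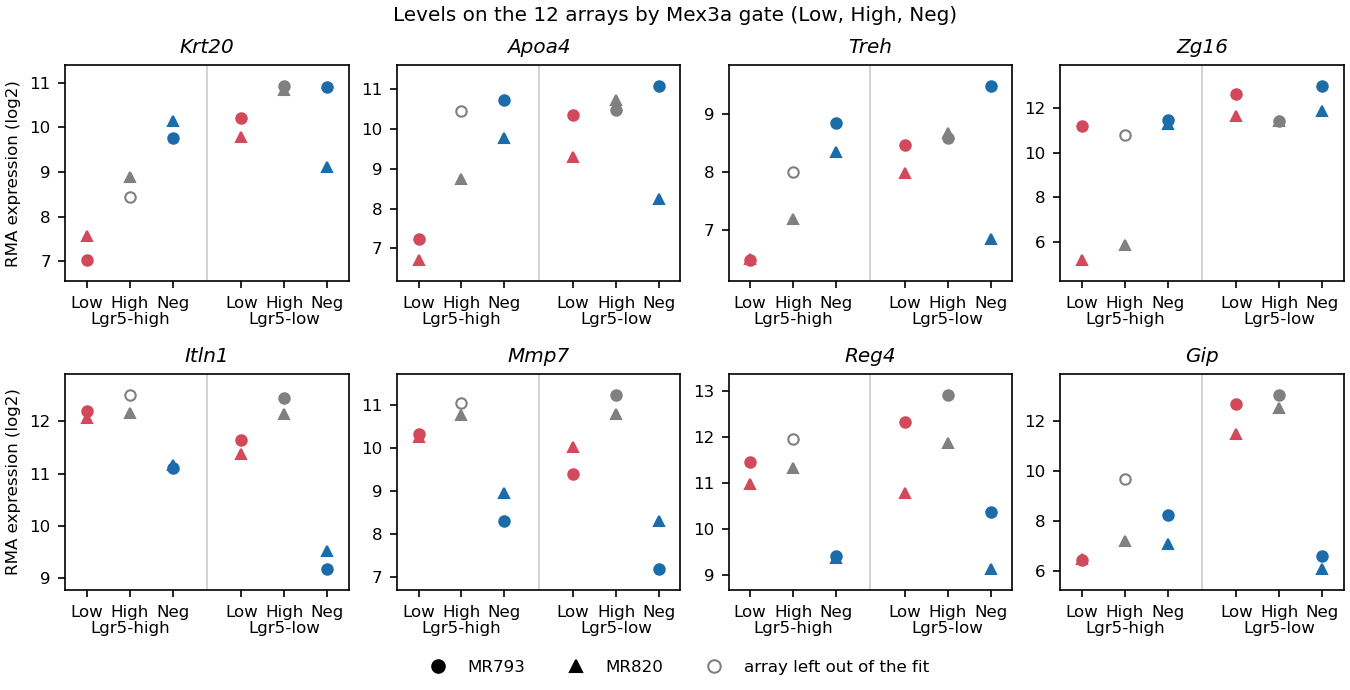
RMA expression (log2, y axis) of 8 genes on all 12 arrays, by Mex3a gate (Low, High, Neg) within Lgr5-high and Lgr5-low cells, circles MR793 and triangles MR820. Open circles mark the array left out of the fit. Krt20, Apoa4 and Treh are lowest in Mex3a-low Lgr5-high cells, and Itln1, Mmp7 and Reg4 are lower in Mex3a-negative than in Mex3a-low cells of both gates.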

How the data were processed

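RNA of 6 isolated cell populations, 2 samples each, was measured on Affymetrix arrays. The deposited table holds 1 log2 value per probe set and array. Per the submitters' processing notes the authors used RMA, in a version not given in the sources used here. RMA gives a value to dim probe sets too and compresses their differences (array medians 5.83 to 6.04). Of 45141 probe sets 28898 have 1 gene in the probe table used here, 551 several and 15692 none listed; each of 17097 genes was read from its brightest single-gene probe set, by the mean of all 12 arrays.

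Limma 3.58.1 in R 4.3.3 (lmFit with 6 population means, eBayes with a trend) was fitted to 11 arrays, leaving 5 residual degrees of freedom with a prior of 4.04. Calls use a Benjamini-Hochberg adjusted p, over all genes, below 0.05. The SE is limma's. The script was tested on simulated data. The replicate labels name biological replicates and pair the populations: replicate deviations correlated at 0.374 to 0.566 in all 10 pairs of populations (0.382 for the pair compared here). The main fit has no block, and the fit with it is given where it changed a call. Alternatives were blocks for replicate and strip, other sets of arrays, array weights, normalization, probe set choice, a filter on dim genes, the variance trend, and leaving out each array.

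The genes named are Mex3a, Lgr5, 15 lower and up to 15 higher genes (14 qualified) with the smallest p among those at a difference of at least 1 with the same sign in both replicates, gene models passed over, and up to 4 members per list with the smallest p; any other gene was picked with its values in view. The comparison, the 25 gene lists and the motifs were chosen with earlier results of these data known. Gene lists were matched by symbol, from general knowledge, and promoter sequences are RefSeq's (GRCm38.p6).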

Additional observations from a re-analysis of the deposited data

Results flagged for a closer look

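The Mex3a-low minus Mex3a-negative difference of 2 genes differed between the Lgr5 gates in limma's test of the difference itself, by -6.94 for Gip, the gene of an incretin hormone, and by -1.68 for Nkx2-2, an enteroendocrine transcription factor gene (adjusted p = 0.010 for both). Nkx2-2 was not called with the strip block or with both blocks. Neither gene was called without the MR793 or the MR820 Mex3a-low Lgr5-high array, without the MR793 Mex3a-negative Lgr5-high array or on all 12 arrays, and without the MR820 Mex3a-negative Lgr5-high array only Gip was. Gip read 6.44 in MR793 and 6.48 in MR820 for Mex3a-low Lgr5-high cells, against 8.24 and 7.10 for Mex3a-negative Lgr5-high cells. In Lgr5-low cells it read 12.67 and 11.50 in Mex3a-low cells, against 6.62 and 6.08 in Mex3a-negative cells. The direction was thus opposite in the gates, in both replicates. Nkx2-2 read 5.14 and 5.05, against 4.69 and 4.74, in Lgr5-high cells, and 6.98 and 6.86, against 4.81 and 4.90, in Lgr5-low cells, where the difference had the same direction and was larger.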

How the results depend on the processing

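All 29 lower and higher genes named by the rule kept their sign in all 696 values over 24 alternatives, and 71 of these values were called. The naming rule had required the same sign in both replicates, and most alternatives refit the same values of the 4 arrays. The kept sign was thus largely fixed by the choice of genes and is no separate support. The count of calls in Lgr5-high cells, 0 in the fit reported, was 4 with the replicate block, which uses the pairing, 7 with replicate and strip blocks, 23 with the 5 Lgr5-high arrays only or the 4 arrays only, and 0 to 20 with each array left out. It was 20 without either Mex3a-negative Lgr5-low array, whose replicates were widely spread, and 1 (Zg16) without the MR793 Mex3a-low Lgr5-high array. In Lgr5-low cells the count of 16 was 57 with the replicate block, 50 with the strip block, 91 with both, 8 with all 12 arrays, 30 with array weights and 10 to 63 with each array left out: 10 without either Mex3a-low Lgr5-high array, 63 without the MR820 Mex3a-low and 47 without the MR820 Mex3a-negative Lgr5-low array. For the difference between the gates the count of 2 was 7 with the replicate block and 7 with both blocks, 0 with all 12 arrays, 4 with array weights and 0 to 27 with each array left out: 0 without either Mex3a-low or the MR793 Mex3a-negative Lgr5-high array, 1 without the MR820 Mex3a-negative one, 4 and 27 without the Mex3a-low and 17 and 5 without the Mex3a-negative Lgr5-low arrays of MR793 and MR820. In Lgr5-high cells the 7 genes called with both blocks were all higher: Ccl9, Clps, Pla2g2f, Pnliprp2, Reg4, Selenom and Spink4. No lower gene was called there in either fit with the replicate block. The genes that the replicate block added are given above or counted here, and it lost no call. The cause of these shifts was not tested.

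The absorptive median of -0.39 was -0.44 with the strip block, -0.18 with both blocks, -0.39 after quantile normalization again, -0.40 on a common median, -0.47 with the probe set of largest SD or without dim genes, and -0.49 to -0.36 with each array left out. The Paneth cell median of 0.64 was 0.78 without dim genes and 0.64 to 0.71 with each array left out. Of 624 list medians 26 had another sign, the villus-top list among them. The Lgr5 difference was -0.13 with both blocks and -0.045 as a mean of probe sets, and that of Mex3a 0.0057 with the strip block, -0.19 to 0.0057 with each array left out, 0.0076 with both blocks and 0.085 with the probe set of largest SD. With 2 arrays a group, and RMA values that flatten dim genes, small differences could not be resolved.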
